A study of Mus musculus with 192 samples.

Results

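Livers of wild-type mice that had been flown to the International Space Station and back (FL_WT) were compared with livers of wild-type mice kept on the ground (GC_WT). The libraries were chosen by the tissue, genotype and condition given in the sample labels. They are 12 of the 192 libraries of the series, with 6 mice in each group.

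RNA was measured in 9 tissues of male WT and Nrf2-KO mice, flown or kept on the ground, which makes 4 groups per tissue. The labels give the background as C57BL/6 and the methods as C57BL/6J, and the labels give the age as 12 weeks, the age at which they were ready for launch. FL_WT mice carry an intact Nfe2l2 gene, lived singly in habitat cages on the station, splashed down at sea and were dissected after transport and behavioural tests. GC_WT mice have the same genotype and lived singly in the same kind of cage at a site in Japan some months later. The methods name CRF-1 chow for the ground mice and describe a change to flight food before launch. Flight, food, season, place and the return journey therefore cannot be told apart in this comparison. The mouse numbers 3, 5, 6, 7, 8 and 10 occur in both groups, but a flight mouse and a ground mouse with the same number are different animals. The KO groups (GC_KO with 6 mice and FL_KO with 5) carry a deletion of Nfe2l2 and were used to estimate the spread and for a comparison of the genotypes.

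The 12 WT libraries held 14.95 M to 15.15 M expected counts. Mitochondrial genes took 7.25% to 9.51% of them in GC_WT and 7.48% to 8.8% in FL_WT. The tissue label held in all 12 libraries, since 8 hepatocyte markers, among them Alb and Ttr, summed to 68600 to 89000 TPM in GC_WT and 68500 to 85800 TPM in FL_WT. TPM, as RSEM computes it, is a level per gene length that sums to the same total in each library. GC_WT mouse 8 was the farthest from its group. Its root mean square distance from the median of the other libraries of its group, over genes on the log2(TPM + 1) scale, was 0.424. The other ground mice had 0.276 to 0.333. This gap did not pass the Dixon rule given in the section on flagged results. Counts that change without this mouse are given beside the results.

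The liver takes up fatty acids that adipose tissue releases and burns them in mitochondria and peroxisomes, turns part of them into ketone bodies, and stores the rest as triglyceride in lipid droplets or exports it in lipoproteins. The nuclear receptor PPARα, which fatty acids activate, turns on many of the genes for this in fasting, while SREBP-1c and ChREBP turn on the synthesis of fatty acids after a meal. Periportal hepatocytes, where portal blood enters the lobule, carry most of the urea cycle, and pericentral hepatocytes carry most of the drug metabolism. Resident macrophages of the liver are called Kupffer cells.

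Changes are given as log2 fold changes of FL_WT over GC_WT, fitted to counts with edgeR, with their standard error (SE) and a p-value adjusted over all 13433 genes tested. A gene was called when that value was under 0.05. In WT liver 463 genes were called, 3.45% of those tested. Of these, 206 were higher in FL_WT (1.53%) and 257 were lower (1.91%). Changes downward were the larger ones, with a median size of 0.75 on the log2 scale for lower genes and 0.44 for higher genes. At least 2-fold changes were found for 32 higher and 74 lower genes. All 6 flight mice were above all 6 ground mice in TPM for 113 of the higher genes, and below them for 70 of the lower genes. Over all genes tested such a separation was found for 2.32% (flight above) and 0.566% (flight below).

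When mouse number entered the fit as a block, 383 genes were higher (2.85%) and 368 lower (2.74%), together 5.59% of those tested. They held 405 of the 463 genes called without the block, which is 87.5% of these and 53.9% of the genes called with it. Where the block changed the call of a gene named below, its adjusted p with the block is given beside it. The fit of log2(TPM + 1) values with limma, which tests the 8349 genes of higher level, called 552 genes higher and 101 lower, so that 84.5% of its calls were higher against 44.5% in edgeR. The median change over these 8349 genes was 0.08, against 0.00 over the 13433 genes of edgeR. Both the scale and the set of genes differ, and their part in the split of calls was not tested. The number of calls also depended on single mice: without FL_WT mouse 5 it was 231, without GC_WT mouse 8 it was 299, and without FL_WT mouse 7 it was 515. In every fit that left out 1 WT mouse, 86 higher and 106 lower genes kept their call.

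**Figure D1:**
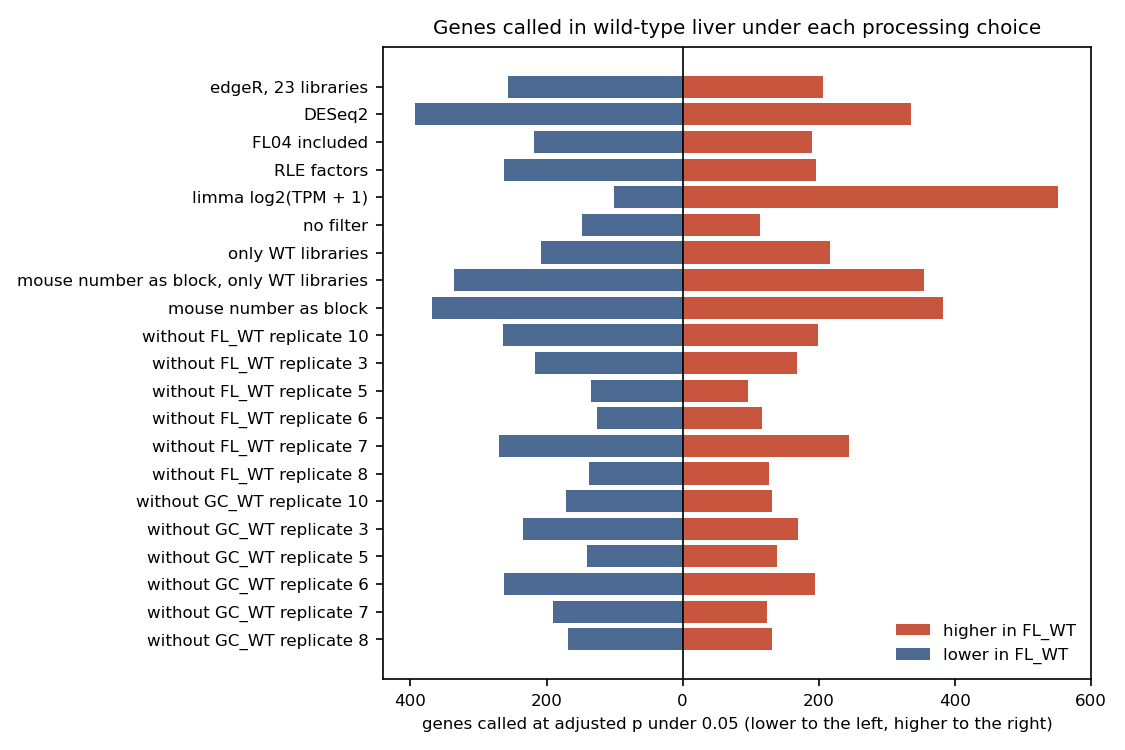
Horizontal bars give the number of genes called at an adjusted p under 0.05 in WT liver (x axis, lower in FL_WT to the left in blue, higher to the right in red) for each processing choice (y axis). Leaving out 1 mouse gave 96 to 245 higher genes, and limma on log2(TPM + 1) gave 552 higher and 101 lower.

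The leading gene was Fgf21, which encodes a hormone that the liver releases in fasting and under stress. The gene (ENSMUSG00000030827.5) lies at chr7:45613886-45615490 on the minus strand (GRCm38). Its level was 0.22, 0.36, 0.44, 0.45, 0.67 and 0.90 TPM in the GC_WT mice and 6.23, 8.54, 9.28, 12.2, 18.3 and 22.1 TPM in the FL_WT mice. Every flight mouse was thus above every ground mouse, and the log2 fold change was 4.56 (SE 0.459, adjusted p = 4.78e-06). The levels stayed modest beside those of secreted liver proteins, and the ground level was under 1 TPM in all mice.

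Apoa4 encodes an apolipoprotein carried by chylomicrons and high-density lipoprotein. It lies at chr9:46240696-46243459 on the plus strand (ENSMUSG00000032080.6). The GC_WT mice held 42.6, 51.9, 69.0, 69.6, 74.2 and 74.5 TPM and the FL_WT mice 661, 694, 833, 1240, 1400 and 1580 TPM. The groups were far apart, and Apoa4 rose by 4.0 on the log2 scale (SE 0.212, adjusted p = 3.66e-11). It was the smallest adjusted p among the genes described here.

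Scd1, the desaturase that makes oleate, was among the lower genes of high level and lies at chr19:44394455-44407879 on the minus strand. GC_WT mice held 1250, 1280, 1540, 1820, 1940 and 2900 TPM and FL_WT mice 340, 382, 460, 489, 560 and 629 TPM. The log2 fold change was -1.95 (SE 0.231, adjusted p = 3.99e-05), and the highest flight mouse was below the lowest ground mouse.

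By the rule used here, the other higher genes without overlap and with the largest changes were Acot3, Cyp4a14, Gm49366, Cyp2a22, Cidec, Treh, Vnn1 and Acot2. Treh, which encodes trehalase, went from a median of 1.42 TPM in GC_WT to 5.13 TPM in FL_WT (log2 fold change 1.84, SE 0.218, adjusted p = 3.99e-05). Vnn1, a pantetheinase and a known PPARα target, went from 20.6 to 76.7 TPM (1.83, SE 0.332, adjusted p = 0.00413). Cyp2a22 was low, with medians of 1.21 and 6.35 TPM (2.06, SE 0.43, adjusted p = 0.011). Among the lower genes the list held Cib3, Selenbp2, Scd1, Aldh1b1, Gm15432, Gstm3, Serpina1e, E030018B13Rik, Hbb-bt and Hba-a1. Cib3, a calcium-binding protein, had GC_WT values of 1.69 to 19.6 TPM with mouse 8 at the top and FL_WT values of 0.2 to 1.53 TPM (-2.81, SE 0.54, adjusted p = 0.00682). Gm15432, a processed pseudogene, had medians of 8.92 and 1.58 TPM (-1.93, SE 0.488, adjusted p = 0.0311), and E030018B13Rik had 7.08 and 2.44 TPM (-1.46, SE 0.347, adjusted p = 0.0388). Their calls were lost in several fits, with adjusted p up to 0.0597 and 0.0812 when 1 mouse was left out.

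**Figure D2:**
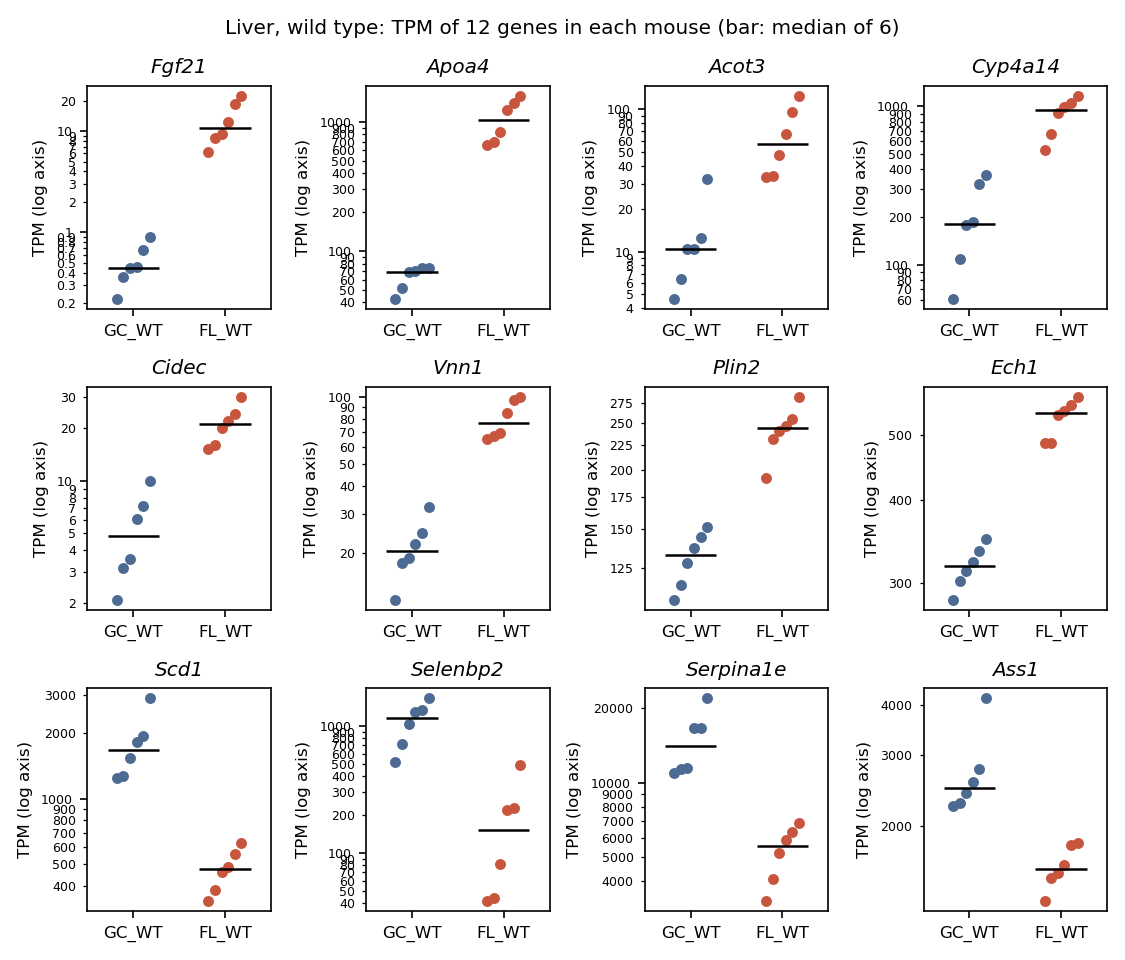
Each panel gives the TPM of 1 gene (log axis) in each GC_WT mouse (blue) and FL_WT mouse (red), with the median of 6 as a bar. Fgf21, Apoa4, Acot3, Cyp4a14, Cidec, Vnn1, Plin2 and Ech1 are higher and Scd1, Selenbp2, Serpina1e and Ass1 lower in FL_WT, with no overlap between the groups in any panel.

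Several genes of fatty acid use rose. Of 7 ketone body genes tested, 4 were called higher and 0 lower, and their median log2 fold change was 0.39, against 0.00 over all genes tested. Bdh1, which makes 3-hydroxybutyrate, rose by 0.65 (SE 0.139, adjusted p = 0.0123), and Acat1, the thiolase that supplies the pathway, by 0.39 (SE 0.0846, adjusted p = 0.0124). Both were without overlap between the groups, and both kept their call when any 1 mouse was left out.

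In the list of mitochondrial fatty acid oxidation, 7 of 25 genes were called higher and 0 lower (median 0.30). They were Acot1, Acot2, Acadm, Acadl, Cpt2, Hadha and Hadh. The list holds Acot1 although its enzyme is cytosolic. Acadm and Acadl, the medium-chain and long-chain acyl-CoA dehydrogenases, rose by 0.60 (SE 0.12, adjusted p = 0.0086) and 0.48 (SE 0.104, adjusted p = 0.0123). Acadm was at 188 to 238 TPM in GC_WT and 276 to 365 TPM in FL_WT. Hadha, a subunit of the trifunctional protein, went from a median of 162 to 215 TPM (0.37, SE 0.0934, adjusted p = 0.0323). Cpt1a, the carnitine transferase that admits fatty acids to mitochondria, had medians of 147 and 189 TPM that overlapped between the groups, with a change of 0.33 and an adjusted p of 0.549, but 0.0192 with the block. With the block 15 of the 25 genes were higher. Leaving out 1 mouse gave 4 to 12, with 4 without FL_WT mouse 5, FL_WT mouse 8 or GC_WT mouse 7 and 12 without FL_WT mouse 7, and 5 without GC_WT mouse 8.

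Of 29 peroxisomal fatty acid genes tested, 5 were higher and 1 lower (median 0.24). Ech1, a dienoyl-CoA isomerase, went from 318 TPM (283 to 349) to 540 TPM (487 to 570), a change of 0.67 (SE 0.0991, adjusted p = 0.000578). Crat and Crot, carnitine acyltransferases, rose by 0.82 (SE 0.169, adjusted p = 0.0105) and 0.63 (SE 0.137, adjusted p = 0.0132). Nudt7, a hydrolase of peroxisomal coenzyme A, moved the other way, from 442 to 187 TPM (-1.05, SE 0.223, adjusted p = 0.0118). Ehhadh, the bifunctional enzyme, had 159 and 227 TPM, with an adjusted p of 0.0564 and of 0.0106 with the block. The block raised the count to 9 higher and 2 lower. In the list of omega hydroxylation, which oxidises the far end of a fatty acid, 2 of 10 genes were higher and 0 lower (median -0.04). Cyp4a14 rose from 181 TPM (60.7 to 368) to 950 TPM (531 to 1160), a change of 2.08 (SE 0.341, adjusted p = 0.00174), and Aldh3a2, which clears fatty aldehydes, rose by 0.70 (SE 0.146, adjusted p = 0.0115). Cyp4a10 had a change of 0.85 (SE 0.282) with an adjusted p of 0.101, and 0.0391 with the block. Reads shared among the near-identical Cyp4a genes were divided by RSEM, so the values of single members are uncertain.

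Among 22 regulators and targets of PPARα, 6 were higher and 0 lower (median 0.31). Besides Fgf21 and Vnn1 they were Fabp2, Txnip, Cd36 and Pparg. Fabp2, a fatty acid binding protein, rose from 54.5 TPM (46.9 to 61.3) to 114 TPM (92 to 128), a change of 0.99 (SE 0.117, adjusted p = 3.99e-05). Txnip, a glucose-responsive thioredoxin inhibitor, rose by 1.52 (SE 0.356, adjusted p = 0.019), which became 0.0526 without FL_WT mouse 5. Cd36, a fatty acid translocase, went from 19.5 to 44.5 TPM (0.85, SE 0.21, adjusted p = 0.0258), and Pparg from 4.5 to 8.71 TPM (0.69, SE 0.191, adjusted p = 0.0465). The last pair of calls depended on single mice, with adjusted p up to 0.0667 and 0.102. Ppara itself had 49 TPM in GC_WT and 63.7 TPM in FL_WT, and its change of 0.23 (SE 0.191) was not called (adjusted p = 0.612). Pdk4 and Angptl4, textbook targets, were not called either, with changes of 0.74 (adjusted p = 0.292) and 0.24 (adjusted p = 0.898). Without GC_WT mouse 8 the list held 4 higher genes, and without FL_WT mouse 5 it held 3.

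A cluster of acyl-CoA thioesterase genes, which split acyl-CoA into free fatty acid and coenzyme A, lies at chr12:83987861-84111349 (123 kb, 7 protein-coding genes). It was looked at after the values were seen. Along the chromosome Acot2, Acot1, Acot4, Gm49366 and Acot3 were called higher without overlap, with log2 fold changes of 1.67, 1.2, 1.21, 2.07 and 2.45. Acot3 went from 10.4 TPM (4.65 to 32.5) to 57.3 TPM (33.5 to 124). Acot6, next to the end, had a change of 0.27 (adjusted p = 0.807), and Acot5 was at most 0.09 TPM and was not tested. Gm49366 overlaps Acot4 and Acot3 on the same strand, and the coding sequences of the family are alike, so single values in this cluster are uncertain.

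The PPAR and RXR pair binds a direct repeat of AGGTCA with 1 base between both copies. This repeat was searched on both strands in RefSeq promoters of 300 bases (GRCm38.p6) with up to 2 mismatches outside the spacer base. Promoters were found for 9929 of the 13433 genes, and 3.90% of these held it, against 5.66% of the higher genes (9 of 159 with a promoter) and 5.08% of the lower genes (10 of 197). The repeat without mismatches was in 0 of the higher genes and 1 of the lower, Bco1, against 5 of the 9929 genes. A match here is a description of letters and not of binding. Of the 9 higher genes, 4 belong to the lists of lipid metabolism, and their promoters are shown because these genes are called members of those lists. The match is in capitals. In each of the 4 it is on the minus strand of the printed sequence, and it begins 225 bases before the start site in Plin2, 63 in Cd36, 22 in Lipc and 13 in Acot4. The coordinates are chr4:86670010-86670309 (Plin2, minus strand), chr5:17835847-17836146 (Cd36, minus strand), chr9:70934759-70935058 (Lipc, minus strand) and chr12:84038129-84038428 (Acot4, plus strand).
Plin2: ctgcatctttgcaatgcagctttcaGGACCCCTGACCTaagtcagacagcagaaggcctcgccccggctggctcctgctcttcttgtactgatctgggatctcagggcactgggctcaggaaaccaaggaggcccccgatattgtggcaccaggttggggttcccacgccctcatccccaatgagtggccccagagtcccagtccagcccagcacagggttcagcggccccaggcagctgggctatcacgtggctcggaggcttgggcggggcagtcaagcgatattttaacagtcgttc
Cd36: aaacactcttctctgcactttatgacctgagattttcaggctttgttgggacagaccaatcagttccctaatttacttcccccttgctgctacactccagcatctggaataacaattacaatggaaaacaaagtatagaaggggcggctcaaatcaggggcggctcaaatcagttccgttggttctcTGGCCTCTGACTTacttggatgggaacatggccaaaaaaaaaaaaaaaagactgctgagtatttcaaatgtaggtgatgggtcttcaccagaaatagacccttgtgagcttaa
Lipc: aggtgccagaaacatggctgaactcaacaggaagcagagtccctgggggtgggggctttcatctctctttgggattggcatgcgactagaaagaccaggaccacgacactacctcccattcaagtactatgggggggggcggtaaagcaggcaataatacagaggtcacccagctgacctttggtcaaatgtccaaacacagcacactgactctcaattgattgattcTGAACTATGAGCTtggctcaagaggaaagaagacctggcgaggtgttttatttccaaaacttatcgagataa
Acot4: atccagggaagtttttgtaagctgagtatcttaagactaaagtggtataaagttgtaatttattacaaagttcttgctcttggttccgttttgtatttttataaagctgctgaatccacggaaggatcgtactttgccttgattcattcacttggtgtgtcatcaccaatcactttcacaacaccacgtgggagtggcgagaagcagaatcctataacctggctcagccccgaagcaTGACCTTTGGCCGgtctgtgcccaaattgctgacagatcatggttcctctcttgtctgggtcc

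Lipid droplet and triglyceride genes were next. Of 22 tested, 6 were higher and 1 lower (median 0.20). Plin2, the coat protein of droplets, rose from 132 TPM (107 to 152) to 244 TPM (192 to 283), a change of 0.83 (SE 0.15, adjusted p = 0.00413). Cidec, which fuses droplets, had 4.8 TPM (2.08 to 9.95) in GC_WT and 21 TPM (15.2 to 30.1) in FL_WT. The groups did not overlap, and the change was 1.91 (SE 0.487, adjusted p = 0.0323), but the call was lost without FL_WT mouse 3, 5 or 6 or GC_WT mouse 3, 8 or 10 (adjusted p 0.0551 to 0.0807 in these fits). G0s2, an inhibitor of triglyceride lipase, rose from 180 to 503 TPM (1.36, SE 0.275, adjusted p = 0.00895). Mgll and Lipc, a monoglyceride lipase and the hepatic lipase, rose by 0.51 (SE 0.103, adjusted p = 0.0085) and 0.43 (SE 0.0932, adjusted p = 0.0123). Lpl, the lipoprotein lipase that the adult liver expresses at low level, fell from 3.09 to 1.45 TPM (-1.36, SE 0.238, adjusted p = 0.00298). Plin5, a droplet protein of oxidative cells, had values without overlap (35 to 50.9 and 51.5 to 74.9 TPM) but an adjusted p of 0.129. Without GC_WT mouse 8 the count was 4 higher and 1 lower.

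Of 20 genes of apolipoproteins and lipoprotein assembly, 2 were higher and 1 lower (median 0.16). Apoh rose by 0.45 (SE 0.0755, adjusted p = 0.00198), from 1450 to 2070 TPM. Apom, a carrier of sphingosine phosphate, fell by 0.52 on the log2 scale (SE 0.0932, adjusted p = 0.004). Apoa4 is 1 of 4 genes in a cluster of 43.3 kb at chr9:46228580-46271919, chosen after its values were seen. Of its neighbours Apoa1 had a change of 0.11 (SE 0.104, adjusted p = 0.668) at about 10100 TPM in GC_WT, and Apoc3 of 0.06 (SE 0.069, adjusted p = 0.755). Apoa5 had values without overlap (1080 to 1480 and 1690 to 2260 TPM), with a change of 0.44 and an adjusted p of 0.174, and 0.0144 with the block.

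**Figure D3:**
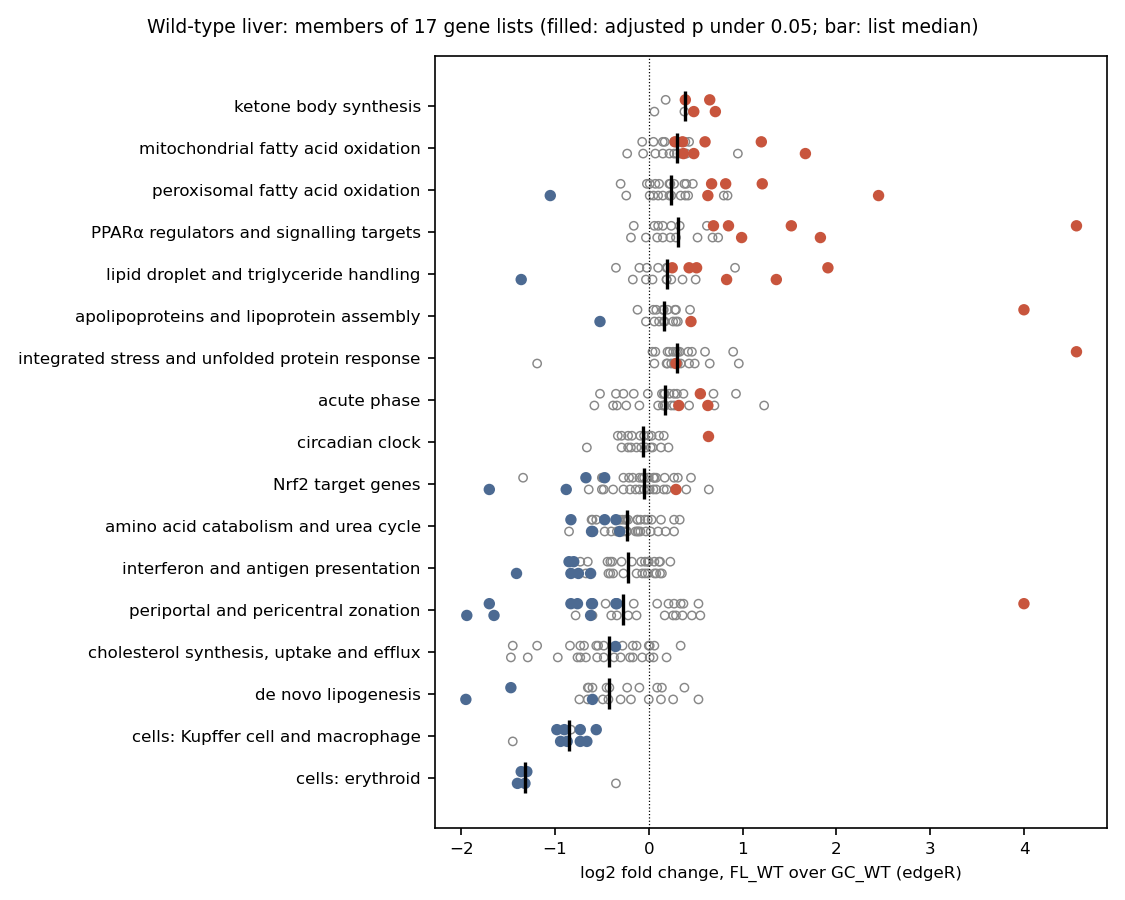
Each point is 1 gene of a list (y axis) at its log2 fold change of FL_WT over GC_WT (x axis), filled red or blue where called and open where not, with the list median as a bar. Called genes of fatty acid use lie to the right except Nudt7, those of zonation lie to the left except Apoa4, and called Kupffer cell and erythroid markers lie to the left.

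Of 23 genes of de novo fatty acid synthesis, 0 were higher and 3 lower (median -0.42), namely Scd1, Acacb and Thrsp. Acacb, the carboxylase whose product inhibits fatty acid entry into mitochondria, fell from 19.9 to 14.1 TPM (-0.60, SE 0.131, adjusted p = 0.0129). Thrsp, a lipogenic nuclear protein, fell from 389 to 124 TPM (-1.47, SE 0.405, adjusted p = 0.0465), a call kept in 3 of the 12 fits that left out 1 mouse (adjusted p up to 0.108). Fasn, Acly and Elovl6 had changes of -0.64, -0.45 and -0.65, and none was called (adjusted p 0.358, 0.357 and 0.122). Srebf1, the gene of SREBP-1c, had medians of 71 and 42.9 TPM with wide overlap (adjusted p = 0.494). Of 32 genes of cholesterol synthesis, uptake and efflux, 0 were higher and 1 lower, the efflux pump Abca1 (-0.36, SE 0.0761, adjusted p = 0.0114), although the median was -0.42. Without FL_WT mouse 7 there were 3 lower genes.

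Of 23 genes of bile acid synthesis and transport, 1 was higher and 3 lower (median 0.00). Cyp2c70, which makes muricholate in mice, fell from 528 to 230 TPM without overlap (-1.15, SE 0.266, adjusted p = 0.0176). Cyp7b1, an oxysterol hydroxylase, fell by 1.06 (SE 0.271, adjusted p = 0.0324) and Akr1d1, a steroid reductase, by 0.35 (SE 0.0851, adjusted p = 0.0236). Abcb4, the phospholipid flippase of bile, rose by 0.49 (SE 0.133, adjusted p = 0.0434). The calls of Cyp7b1, Akr1d1 and Abcb4 were lost when some single mice were left out, with adjusted p up to 0.0901, 0.0592 and 0.0952, and 1 gene was lower without FL_WT mouse 6 or GC_WT mouse 5. Cyp7a1, which sets the rate of bile acid synthesis, ranged from 39.7 to 162 TPM in GC_WT and from 15.4 to 111 TPM in FL_WT and was not called (adjusted p = 0.557).

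Several enzymes that break down amino acids fell. Of 40 genes of amino acid catabolism and the urea cycle, 0 were higher and 6 lower (median -0.23). Ass1, which joins citrulline and aspartate, had 2490 TPM (2240 to 4160) in GC_WT and 1560 TPM (1300 to 1810) in FL_WT. The change was -0.83 (SE 0.127, adjusted p = 0.000977), and the groups did not overlap. Cps1, the entry enzyme of the cycle, fell by 0.61 (SE 0.103, adjusted p = 0.00198), Otc by 0.31 (SE 0.0757, adjusted p = 0.0251) and Arg1 by 0.35 (SE 0.0936, adjusted p = 0.0409). Gls2, the liver glutaminase, fell by 0.60 (SE 0.146, adjusted p = 0.0238), which became 0.0606 with the block. In GC_WT mouse 8 Ass1, Gls2 and Arg1 were at 4160, 312 and 1330 TPM, above every other WT liver. Without that mouse 3 of the 40 genes were lower, without FL_WT mouse 6 or GC_WT mouse 5 also 3, and without FL_WT mouse 8 only 2, while the block gave 10.

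Of 18 genes of methionine and one-carbon metabolism, 1 was higher and 3 lower (median -0.18). Gnmt, which disposes of excess methyl groups, fell from 1500 to 1160 TPM without overlap (-0.64, SE 0.0998, adjusted p = 0.000988). Aldh1l1, a folate dehydrogenase, fell by 0.59 (SE 0.0885, adjusted p = 0.000688). Bhmt, which remethylates homocysteine with betaine, fell by 1.13 (SE 0.28, adjusted p = 0.0268, up to 0.0766 without 1 mouse). Dmgdh, which acts on the product of Bhmt, rose by 0.48 (SE 0.108, adjusted p = 0.0147).

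The zonation list was read by zone. Of 17 periportal genes tested, 1 was higher (Apoa4) and 8 lower, with a median of -0.60. The lower ones were Arg1, Ass1, Cyp2f2, Gls2, Etnppl, Aldh1b1, Cps1 and Cdh1. Of 15 pericentral genes, 0 were higher and 2 lower (Gulo and Gstm3), with a median of 0.17. The difference between the zones was not tested. Aldh1b1, a mitochondrial aldehyde dehydrogenase, fell from 20.6 to 6.37 TPM (-1.94, SE 0.26, adjusted p = 0.000196), and Cyp2f2 from 1120 to 772 TPM (-0.62, SE 0.101, adjusted p = 0.0017). Cdh1, E-cadherin, fell by 1.65 (SE 0.449, adjusted p = 0.0459, up to 0.11 without 1 mouse). GC_WT mouse 8 held the highest Aldh1b1, Ass1 and Gls2 of all WT livers, and without it 4 periportal genes were lower. Over both zones 10 genes were lower, against 5 without FL_WT mouse 6 or 8 and 6 without GC_WT mouse 5, 7 or 8.

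The genes that Nrf2 controls were examined because the study concerns this factor, which turns on genes of glutathione and detoxification. Nfe2l2, its gene, had 42.2 TPM (34.8 to 57.2) in GC_WT and 57.2 TPM (41.8 to 66.2) in FL_WT. The change of 0.31 (SE 0.0954) had an adjusted p of 0.0683, and 0.0278 with the block. Of 41 Nrf2 targets, 1 was higher (Fth1) and 4 lower (median -0.05). The lower ones were glutathione transferases. Gstm3 fell from 56.8 to 17.1 TPM (-1.70, SE 0.236, adjusted p = 0.000308) and Gstp1 from 3830 to 2090 TPM (-0.88, SE 0.118, adjusted p = 0.000196). Gstm1 and Gstm6 fell by 0.67 (SE 0.113, adjusted p = 0.00198) and 0.47 (SE 0.0902, adjusted p = 0.00682). The transferases are close paralogs, and their single values are uncertain. Fth1, the ferritin heavy chain, rose by 0.29 (SE 0.0808, adjusted p = 0.0465), which became 0.0511 with the block and up to 0.125 without 1 mouse. Nqo1, often used to read Nrf2 activity, had a change of -0.05 (SE 0.231, adjusted p = 0.961), and Gclc, which sets the rate of glutathione synthesis, of 0.45 (SE 0.178, adjusted p = 0.176, and 0.0103 with the block).

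In the Cyp2 and Cyp3 families 3 of 37 genes were higher and 4 lower. Cyp2c38 rose from 21.9 to 66.7 TPM (1.42, SE 0.171, adjusted p = 4.52e-05) and Cyp2d26 from 690 to 1050 TPM (0.51, SE 0.106, adjusted p = 0.0108). Cyp3a11, the main drug-metabolising P450 of the mouse, fell from 2720 to 1780 TPM (-0.64, SE 0.128, adjusted p = 0.00848), and Cyp2c55 from 3.51 to 0.99 TPM (-1.81, SE 0.356, adjusted p = 0.00793). Cyp2a4 was called lower through 1 mouse, since GC_WT mouse 8 held 167 TPM and the other 5 ground mice 0.69 to 2.42 TPM. Without that mouse its change was 0.16 (adjusted p = 0.928), and with the block -1.47 (adjusted p = 0.358). Of 29 conjugation enzymes 1 was lower, Ugt2b1 (-0.82, SE 0.145, adjusted p = 0.00326).

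Growth hormone and sex-biased genes held 1 higher (Acot3) and 6 lower of 32 (median -0.13). Selenbp2, a selenium-binding protein with male-biased expression, fell from 1160 TPM (519 to 1650) to 151 TPM (41.8 to 489), a change of -2.63 (SE 0.569, adjusted p = 0.0125). Serpina1e, one of several near-identical α1-antitrypsin genes whose single values are uncertain, fell from 14000 to 5540 TPM (-1.54, SE 0.194, adjusted p = 8.92e-05). Igfbp3, a carrier of IGF-1, fell by 0.78 (SE 0.172, adjusted p = 0.0141). Gstp1, Cyp7b1 and Cyp2a4 also belong to this list. Cyp2a4 is biased toward females, and its call rested on GC_WT mouse 8.

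In the acute phase list 3 of 31 genes were higher and 0 lower (median 0.17). Hp, haptoglobin, rose from 2000 to 3530 TPM without overlap (0.63, SE 0.103, adjusted p = 0.00174). Serpina3m rose by 0.55 (SE 0.12, adjusted p = 0.0128) and Cp, ceruloplasmin, by 0.32 (SE 0.0715, adjusted p = 0.0156), and without FL_WT mouse 7 the count was 5. In the list of the integrated stress and unfolded protein response 2 of 26 genes were higher and 0 lower (median 0.30). These were Fgf21 and Slc3a2 (0.29, SE 0.0675, adjusted p = 0.0181, up to 0.0513 without 1 mouse). With the block 5 were higher and 0 lower. Changes above 0 were found for 25 of the 26, against 6721 of all 13433 genes tested. Atf4 had 60.8 to 79.6 TPM in GC_WT and 82.2 to 98.1 TPM in FL_WT without overlap, but an adjusted p of 0.0932. Asns, a target of ATF4 and the only member not above 0, had a change of -1.19 (SE 0.486, adjusted p = 0.198). Of glycolytic and gluconeogenic genes 1 of 33 was higher, Ldha, lactate dehydrogenase A, from 440 TPM (425 to 500) to 772 TPM (672 to 808) (0.69, SE 0.0671, adjusted p = 3.82e-06). Pck1 and G6pc, which make glucose, overlapped widely (adjusted p 0.931 and 0.758). Metallothioneins spread widely in flight, with Mt1 at 53.7 to 117 TPM in GC_WT and 66 to 730 TPM in FL_WT (adjusted p = 0.16, and 0.0374 with the block). Hsd11b1, which regenerates glucocorticoid, was the 1 called gene of 19 in the list of glucocorticoid response and metallothioneins (0.34, SE 0.0824, adjusted p = 0.0245, up to 0.0662 without 1 mouse). With the block 4 genes of this list were higher and 2 lower.

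Markers of macrophages and red cells were among the lower genes. In bulk tissue fewer cells of a type and less RNA per cell cannot be told apart. Of 10 Kupffer cell and macrophage markers, 0 were higher and 8 lower (median -0.85). Csf1r, the receptor for the growth factor of macrophages, fell from 9.19 to 5.03 TPM (-0.98, SE 0.205, adjusted p = 0.0111). Clec4f, Vsig4, Cd5l, C1qa, C1qb, C1qc and Adgre1 fell by 0.56 to 0.94 on the log2 scale with adjusted p between 0.0251 and 0.0465. The summed level of the 10 markers was 113 to 235 TPM (median 138) in GC_WT and 71.1 to 148 TPM (median 88.4) in FL_WT, with overlap. With the block 5 of the 10 were called, and Clec4f, Vsig4 and Cd5l lost their call (adjusted p 0.0566, 0.076 and 0.0626), and leaving out 1 mouse gave 1 to 10. The count was 1 without FL_WT mouse 3, 5 or 6 or GC_WT mouse 5, 2 without FL_WT mouse 8 or GC_WT mouse 8, and 4 without GC_WT mouse 10. Endothelial and stellate cell markers had medians of -0.32 and -0.34 with 0 called of 10 and of 9 in edgeR (5 and 4 at an unadjusted p under 0.05, 2 and 0 in DESeq2, 0 and 0 in limma). Cela1, a pancreatic elastase, fell from 16.8 to 9.5 TPM (-0.88, SE 0.247, adjusted p = 0.0493, up to 0.119 without 1 mouse), while the other 7 acinar markers were under 0.5 TPM in every one of these libraries.

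Of 34 genes of interferon and antigen presentation, 0 were higher and 6 lower (median -0.23, and 0.01 with limma). They were Ciita, Cd74, H2-Ab1, H2-Aa, H2-Eb1 and Ifit3. All but Ifit3 serve antigen presentation by MHC class II, which Kupffer cells, dendritic cells and B cells carry. Cd74, the invariant chain, fell from 63 to 40.9 TPM (-0.83, SE 0.187, adjusted p = 0.0149) and H2-Ab1 from 20.5 to 13.7 TPM (-0.85, SE 0.197, adjusted p = 0.0176). The summed Kupffer cell markers and the summed B and plasma cell markers moved in the same direction, both with overlap, and their part in this was not tested. Without FL_WT mouse 3, 6 or 8 or GC_WT mouse 5 or 8 the count was 3. Of 30 matrix genes 3 were lower (Sparc, Col14a1 and Bgn) and of 22 cell cycle genes 2 (Top2a and Mki67, both under 1 TPM). The matrix count was 1 without FL_WT mouse 5 or 6 or GC_WT mouse 5 or 8, and the cell cycle count was 1 without FL_WT mouse 5.

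Globin levels did not overlap between the groups. Of 5 erythroid markers tested, 4 globin genes were lower (median -1.32). Hba-a2 fell from 289 TPM (230 to 343) to 124 TPM (80 to 163), a change of -1.30 (SE 0.255, adjusted p = 0.00792). Hbb-bs fell from 204 TPM (153 to 239) to 93 TPM (47.1 to 103) (-1.32, SE 0.257, adjusted p = 0.00753). Hba-a1 and Hbb-bt fell by 1.36 and 1.40. The summed 7 markers were at 570 to 801 TPM in GC_WT and 234 to 399 TPM in FL_WT, and the membrane marker Slc4a1 was under 0.5 TPM in all of these livers. The α-globin genes are near-identical, and so their single values are uncertain. Tfrc, the transferrin receptor, fell from 12.3 to 6.52 TPM (-0.94, SE 0.199, adjusted p = 0.0117). Blood left in the tissue was not measured, and its part was not tested.

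**Figure D4:**
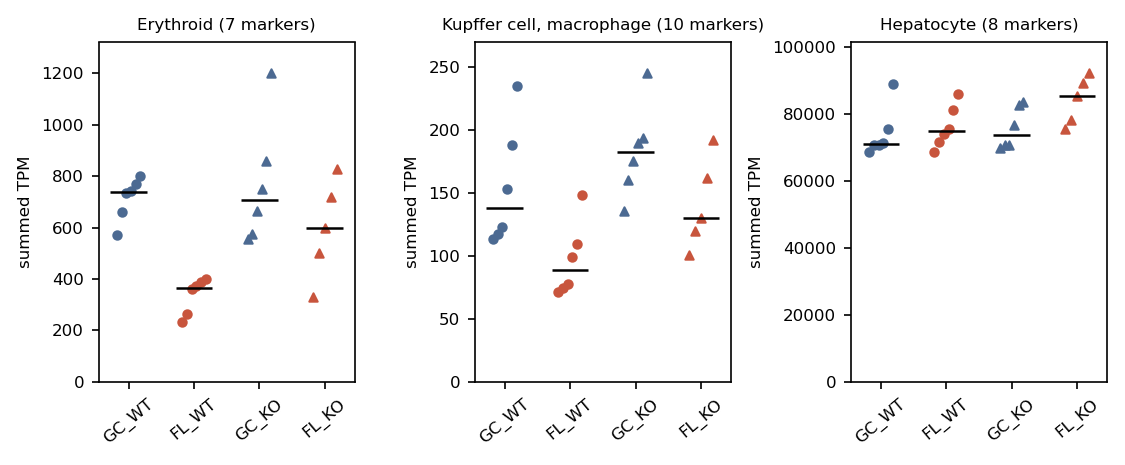
Each panel gives the summed TPM (linear axis from 0) of the markers of 1 cell type in every mouse of GC_WT, FL_WT (circles), GC_KO and FL_KO (triangles), with the group median as a bar. The erythroid sum does not overlap between GC_WT and FL_WT, the Kupffer cell sum does, and the hepatocyte sum lies at 68500 to 89000 TPM in WT mice.

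Clock genes swing within the day, and their levels depend on the hour of dissection. Of 22 clock genes, 1 was called, Nfil3, a repressor of D-box genes, from 21.6 to 35 TPM (0.63, SE 0.124, adjusted p = 0.00793). Of the other clock genes, none was called, among them Arntl, Clock, Npas2, Per1, Per2, Per3, Cry1, Cry2, Nr1d1, Nr1d2, Rora, Dbp, Tef, Hlf, Ciart, Bhlhe40, Bhlhe41, Usp2, Noct and Wee1, with adjusted p of 0.314 (Cry2) and above. Dbp, the clock output with large daily swings, ranged from 5.82 to 42 TPM in GC_WT and from 7.37 to 31.3 TPM in FL_WT. Nr1d1 ranged from 1.48 to 23.8 TPM and from 3.98 to 19.9 TPM, and Arntl from 4.11 to 17.8 TPM and from 5.4 to 17.6 TPM. The groups overlapped over most of their range in all of these. Over the 6 mouse numbers, the Arntl level of flight and ground mice had r = 0.863 (exact permutation p = 0.0361, adjusted 0.0746) and rho = 0.771 (exact p = 0.103, adjusted 0.172), and r = 0.689 without the 2 numbers farthest from the median. Dbp had r = 0.850 (exact permutation p = 0.0458, adjusted 0.0746) and rho = 0.657 (exact p = 0.175, adjusted 0.219), and r = 0.468 without 2 numbers. Per1 had r = 0.723 (exact permutation p = 0.0597, adjusted 0.0746) and rho = 0.829 (exact p = 0.0583, adjusted 0.146), with r = 0.900 without 2.

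The first principal component of the 12 livers held 26.1% of the variance and overlapped between the groups (exact permutation p = 0.0541, adjusted 0.0811, two-sided). Paired by mouse number, a test chosen after the data were seen, every one of the 6 flight mice was above the ground mouse of its number (exact sign-flip permutation p = 0.0312, the smallest that 6 pairs allow, adjusted 0.0468). The second held 22.3% and its mean differed between them (exact permutation p = 0.013, adjusted 0.039, two-sided, and adjusted 0.0468 when paired). This call was lost with a pseudocount of 0.1 (adjusted p = 0.0909 in the exact permutation test) and with unit variance (0.0843). Scores on the first component went together in mice of the same number, with r = 0.861 (exact permutation p = 0.0347, adjusted 0.0746), rho = 0.943 (exact p = 0.0167, adjusted 0.0835) and r = 0.955 without 2 numbers. The second had r = 0.797 (exact permutation p = 0.0917, adjusted 0.0917), rho = 0.600 (exact p = 0.242, adjusted 0.242) and r = 0.858 without 2. None of these 5 relations passed the adjustment.

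Some lists held no called gene. Of 16 heat shock genes, 44 nuclear genes of oxidative phosphorylation, 40 cytosolic ribosomal proteins and 28 proteasome genes, edgeR called 0, with medians of -0.08, -0.05, 0.02 and -0.01. At an unadjusted p under 0.05 they held 1, 7, 3 and 0 genes. DESeq2 called 0, 1, 1 and 0 of them, limma 0, 2, 2 and 1, and the fit with the block 0, 1, 1 and 0. Of 19 p53 targets 1 was higher (Ei24, 0.24, adjusted p = 0.0251, up to 0.0623 without 1 mouse) and of 14 immediate early genes 1 (Jun, 1.04, adjusted p = 0.0479, up to 0.111 without 1 mouse). In the haem and iron list, 2 of 26 were higher (Cpox and Fth1) and 1 lower (Tfrc). Both higher calls were lost with the block (adjusted p 0.0786 for Cpox), without the filter, and without FL_WT mouse 3, 5, 6 or 8 or GC_WT mouse 5, 7 or 8. The fit with the block called 4 genes of the list higher and 1 lower. DESeq2 and limma each called 6 higher and 1 lower. With FL_WT mouse 3 left out 2 genes of the list were lower.

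The same contrast in Nrf2-KO mice uses other animals. They shared the flight, or the ground site and season, with the WT mice, so the same factors cannot be told apart. In KO mice, 176 genes were higher and 272 lower (1.31% and 2.02% of those tested, together 3.34%). Of the 206 genes higher in WT, 202 had the same sign in KO mice and 80 were called in the same direction. Of the 257 lower ones, 245 had the same sign and 84 were called. Their median changes were 0.44 in WT and 0.32 in KO for the higher genes, and -0.75 and -0.46 for the lower. The share with the same sign over all genes tested was not counted. The difference between genotypes was tested directly, and edgeR called 0 of 13433 genes (542, or 4.03%, at an unadjusted p under 0.05), DESeq2 1 and limma 0. Apoa4 rose in KO mice by 3.85 (adjusted p = 1.05e-10) and Fgf21 by 3.13 (adjusted p = 0.000211). Some lower genes of WT were not called in KO mice, such as Hba-a2 (-0.47, adjusted p = 0.417) and Cyp3a11 (-0.20, adjusted p = 0.533), without a called difference between the genotypes. The cholesterol list had 19 lower genes in KO mice and 1 in WT, with medians of -1.01 and -0.42, and the difference was not tested. The erythroid sum was 557 to 1200 TPM in GC_KO and 330 to 828 TPM in FL_KO.

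**Figure D5:**
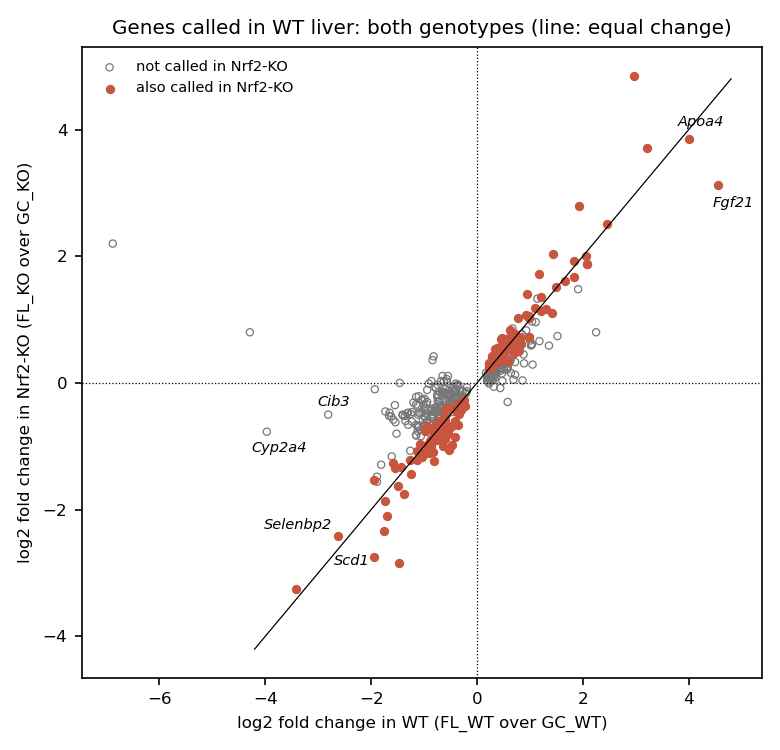
Each point is 1 of the 463 genes called in WT liver, at its log2 fold change in WT (x axis) and in Nrf2-KO mice (y axis), filled where also called in KO mice. Points near the line changed alike. Of all points shown, 96.5% had the same sign in both, and the share over all genes tested was not counted.

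In other tissues of the WT mice the same contrast was fitted separately. Kid had 3 flight and 3 ground WT mice, against 6 and 6 in liver, so its share of calls cannot be compared with that of liver. In Kid, 18 of 15114 genes were called (0.119%). Of these, 3 were also called in liver in the same direction, among them Cyp4a14 (4.42, SE 0.417, adjusted p = 0.00151) and Cp (0.74, SE 0.0841, adjusted p = 0.00259). In Cbr, 4 genes were called (0.0244%), and 3 of them were globins lower in liver too: Hba-a2 (-1.25), Hbb-bs (-1.25) and Hbb-bt (-1.54). In Spl 2.26% of genes were called, and the globins were lower there (-2.20 to -2.51) and in iBAT (-1.2 to -1.67). In Thy 22.8% of genes were called, 11.8% higher and the rest lower. Of 169 genes higher in liver, 24 were higher and 13 lower there. Of 207 lower in liver, 19 were lower and 65 higher. In eWAT 13.4% were called, 6.65% higher and 6.78% lower. Of 183 genes higher in liver, 14 were higher and 25 lower there, and of 222 lower in liver, 20 were lower and 20 higher. In iBAT 19.2% were called, 8.83% higher and 10.3% lower. Of 174 genes higher in liver, 25 were higher and 28 lower there, and of 191 lower in liver, 25 were lower and 14 higher. The differences from the shares over all genes were not tested. Scd1 was lower in eWAT (-1.06, adjusted p = 0.000186) and iBAT (-1.35, adjusted p = 6.28e-05).

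Other promoter motifs were counted on the same promoters, on both strands. The E-box CACGTG, bound by CLOCK and BMAL1, was in 11.6% of genes tested, 12.6% of the higher and 4.06% of the lower. The D-box TTATGTAA was in 0.715%, 0 and 0.508%, the ROR element in 0.201%, 1.26% and 1.02%, and the Nrf2 element TGACNNNGC in 16.8%, 13.2% and 15.7%. The ROR element shares AGGTCA with the PPAR repeat. The shares are descriptions and were not tested.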

How the data were processed

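RNA of 12 WT livers (6 FL_WT, 6 GC_WT) was compared. Libraries were made with a strand-specific kit, and the labels name both poly(A) RNA and rRNA-depleted total RNA for the series and polyA RNA for these samples. The submitters' processing notes name bcl2fastq, STAR 2.6.1, RSEM 1.3.1 and mm10. The authors deposited expected counts, estimated by RSEM without normalization, in which a read that matches several genes is divided among them. They deposited TPM values from the same RSEM run. A further 192 columns of FPKM were not used. The table lists 54752 genes, 93 of whose symbols occur more than once. The strand setting of the counting is not given in the sources used here, so genes that overlap on opposite strands may share reads.

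Counts rounded to whole numbers were tested in R 4.3.3 by edgeR 4.0.16 (filterByExpr by group, TMM, quasi-likelihood test, Benjamini-Hochberg over 13433 genes, called under 0.05). The 23 liver libraries of 4 groups were fitted together so that they share the estimate of spread. FL_KO mouse 4 was left out as in the study. The SE is the log2 fold change divided by the square root of the F statistic. Alternatives were limma 3.58.1 with log2(TPM + 1) values of genes with a mean of at least 5 TPM in at least 1 group, DESeq2 1.42.0, RLE factors, no filter, only WT libraries, the mouse number as a block, FL_KO mouse 4 included, and each WT mouse left out in turn. Scripts were tested on simulated counts with known changes of 2-fold and 1.5-fold. Of these edgeR recovered 80% and 49%, with 3.01% false among its calls, and with the block 80% and 39%, with 1.65% false. For DESeq2 these were 85% and 56%, with 11.32% false among its calls. Gene lists, cell markers and the question itself were chosen with earlier results of these data known, and lists were described by counts and medians with no test. Named genes were the 10 higher and 10 lower called genes with the largest change, no overlap of TPM and a mean of at least 5 TPM in 1 group, up to 4 called members of each list by adjusted p with up to 2 of the opposite direction, the clock list, Nfe2l2, Ppara and called cell markers, and genes called in the interaction, of which edgeR found none. Some genes that this rule names are not reported here. Other list members, and genes said to be so, were chosen after their values were seen. Coordinates are from GENCODE vM21 on GRCm38 and promoters from RefSeq on GRCm38.p6. Depth was 14.95 M to 15.15 M expected counts per WT library, and genes under 1 TPM are measured with few reads. Correlations over mouse numbers and principal components were tested with exact two-sided permutation, and a test of the components paired by mouse number was added after the data were seen. Deviations from the group means of same-numbered flight and ground mice correlated at 0.0148 to 0.301, over 0.1 in 3 of 6 pairs. Those of differently numbered mice correlated at -0.269 to 0.187, over 0.1 in 8 of 30 pairs.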

Additional observations from a re-analysis of the deposited data

Results flagged for a closer look

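In groups of 6 mice, a mouse was noted where its gap to the nearest other mouse was above Dixon's 95% critical share of the range of its group. Of 284 groups of values checked, 20 met this, and chance alone gives about 1 in 20. GC_WT mouse 8 accounted for 10 of them. It held 32.5 TPM of Acot3 (other ground mice 4.65 to 12.5), 19.6 of Cib3 (1.69 to 5.61), 57.0 of Aldh1b1 (13.9 to 21.7), 500 of Ldha (425 to 447), 4160 of Ass1 (2240 to 2770), 312 of Gls2 (145 to 165), 1330 of Arg1 (866 to 994) and 167 of Cyp2a4 (0.69 to 2.42). Its hepatocyte markers summed to 89000 TPM (68600 to 75400) and its kidney and adrenal markers to 39.1 TPM (4.2 to 7.67).

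Of the other 10, the lowest flight mouse was FL_WT mouse 7 for Acadm (276 TPM, others 337 to 365) and Hadha (179 TPM, others 213 to 231). GC_WT mouse 5 was highest for Txnip (57.7 TPM, others 18.3 to 32.6) and Vsig4 (17.9 TPM, others 9.33 to 11.9). GC_WT mouse 10 was highest for Cyp2f2 (1390 TPM, others 1060 to 1180), and FL_WT mouse 3 for Ugt2b1 (289 TPM, others 200 to 230). FL_WT mouse 10 was highest for Ctss (16.5 TPM, others 8.69 to 11.3), Cfp (9.08 TPM, others 4.1 to 5.82, a gene whose call was lost with the block at an adjusted p of 0.0575) and the summed skeletal muscle markers (3.64 TPM, others 1.86 to 2.32). GC_WT mouse 7 had the highest muscle sum of the ground mice (8.76 TPM, others 1.54 to 4.04). What sets these mice apart was not tested.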

How the results depend on the processing

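Higher genes numbered 206 in WT liver and 335 with DESeq2, 552 with limma, 114 without the filter, 383 with the mouse number as replicate block and 355 with that block in WT libraries alone, and 96 to 245 with 1 mouse left out. Lower genes numbered 257, 393 with DESeq2, 101 with limma, 148 without the filter and 126 to 270 with 1 mouse left out. In KO mice 176 higher genes became 271 with DESeq2, 1338 with limma and 100 without the filter, and 272 lower genes became 153 with limma. DESeq2 called 1 gene for the genotype difference, edgeR 0. The adjusted p of the first principal component was 0.0324 with a pseudocount of 0.1 and 0.0468 with scores paired by mouse number as replicate block (0.0811 with 1 and unpaired), and that of the second 0.0909 with that pseudocount and 0.0843 with unit variance (0.039). The genes named by rule, the further list members and those picked later held 128 called genes, not all of which are described here. Of these 128, 8 lost their call with the replicate block, 30 without the filter, and 6 to 40 with 1 mouse left out. The named gene Cyp2a4 ranged from -4.3 to 0.16 with 1 mouse left out and reversed to 0.16 without GC_WT mouse 8. The cause was not tested. The labels do not say that a mouse number marks a shared litter or day, so the numbers were used as names, and what else such mice share was not tested. Correlations exceeded 0.1 in 3 of 6 same-numbered pairs and in 8 of 30 differently numbered pairs, with medians of 0.12 and -0.0499. Of the mice, 2 flight and 2 ground mice correlated best with their own number.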

Other observations

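Further genes of WT liver, chosen after their values were seen, extend the account. Mpeg1, a pore-forming protein of macrophages, had 7.91 to 20.4 TPM in GC_WT and 4.97 to 6.95 TPM in FL_WT, without overlap (log2 fold change -1.0, SE 0.163, adjusted p = 0.0017). Ptprc, the pan-leukocyte CD45, fell by 0.85 (SE 0.194, adjusted p = 0.0162), Laptm5 by 0.71 (SE 0.15, adjusted p = 0.0117), Ctss, a lysosomal protease, by 0.69 (SE 0.164, adjusted p = 0.021) and Tlr7 by 1.15 (SE 0.257, adjusted p = 0.0146). The summed Kupffer cell markers were lower too, at a median of 88.4 against 138 TPM, as were those of T and NK cells (0.86 to 2.43 against 1.69 to 4.43 TPM, with 4 of 9 markers under 0.5 TPM in every library), B and plasma cells (18.3 to 24.1 against 13.6 to 99 TPM, 1 of 8) and neutrophils (0.4 to 2.13 against 0.71 to 3.2 TPM, 6 of 8), all with overlap. The part of these cells in the lower genes was not tested.

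The complement genes C2, C8b and C9 were picked after their values were seen, and complement genes were not counted as a list. C3, C4b and Cfb of the acute phase list had changes of 0.27, 0.14 and 0.17 and were not called. C2 fell from 36.3 TPM (33.8 to 49.2) to 26.5 TPM (24.4 to 27.9) (-0.59, SE 0.0858, adjusted p = 0.000463), C8b by 0.58 (SE 0.124, adjusted p = 0.0117) and C9 by 0.53 (SE 0.118, adjusted p = 0.0146). Among higher genes Id2, an inhibitor of helix-loop-helix factors, rose from 121 to 260 TPM without overlap (0.98, SE 0.137, adjusted p = 0.000308). Retsat, a retinol saturase, rose from 275 to 564 TPM (0.92, SE 0.184, adjusted p = 0.0086), Serpina7, the thyroxine-binding globulin, from 7.89 to 26.9 TPM (1.49, SE 0.327, adjusted p = 0.0137), and Selenop, the selenium carrier of plasma, from 4690 to 6930 TPM (0.41, SE 0.0821, adjusted p = 0.0085). In Nrf2-KO mice Id2 and Retsat rose by 1.05 (adjusted p = 0.000211) and 1.07 (adjusted p = 0.0021).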
